A study of Mus musculus with 2 samples.

Results

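The creatine kinase and adenylate energy buffer genes are 10 named genes, Ckm, Ckb, Ckmt1, Ckmt2, Ak1, Ampd1, Ampd3, Slc6a8, Gatm and Gamt, out of 55536 annotated genes in the deposited tables. They were chosen by symbol and not by any measured value, and each symbol was joined to its gene through the gene identifier. The libraries are total RNA-seq of gastrocnemius, a fast calf muscle, from 2 male mice aged 4 days. Both animals were of the hybrid strain B6CASTF1/J, the first-generation cross of C57BL/6J and CAST mice, and carried no treatment or engineered allele that the labels name. The labels list them as 2 biological replicates of 1 group with separate donors, and each library took 300 ng of RNA and a mix of ERCC control RNAs. There was no second group, so genes were compared with each other inside a library and the 2 animals were set side by side.

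Muscle contraction uses ATP faster than mitochondria replace it, and the phosphocreatine system bridges the gap. Creatine kinases move phosphate between ATP and creatine, a muscle and a general form working in the cytosol and a sarcomeric and a ubiquitous form in mitochondria. Adenylate kinase rebuilds ATP from ADP and leaves AMP, which AMP deaminase turns into IMP. Creatine enters the fibre through a membrane transporter, and the body makes it from arginine, glycine and a methyl group in a pair of enzymatic steps.

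Annotated genes held 35281187 expected counts in replicate 1 and 32301531 in replicate 2, and the 10 genes took 0.542% and 0.503% of them. All 5 skeletal muscle markers (Acta1, Tnnt3, Mylpf, Pygm and Des) were at 1 TPM (transcript abundance corrected for length and depth) or more in both libraries and summed to 31532 and 29366 TPM. In bulk tissue, fewer cells of a type and less RNA per cell cannot be told apart. With 1 library per animal, an animal's own level cannot be told apart from dissection or library preparation. Paired values are for replicate 1 and then replicate 2, and means are given ± SD over the 2 libraries (n = 2). No test was made, since the smallest two-sided p an exact sign-flip permutation of 2 libraries allows is 0.5.

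The 10 genes summed to 6032 and 5462 TPM, of which Ckm alone held 84.5% and 83.0%. At 1 TPM or more in both libraries stood 9 of the 10, where 55.2% of the 22015 protein-coding genes outside the mitochondrial genome did. The median of the 10 was 96.3 ± 6.63 TPM and that of all those protein-coding genes 2.37 ± 0.247 TPM. From highest to lowest mean level the order was Ckm, Ak1, Gamt, Ampd1, Gatm, Ckmt2, Slc6a8, Ckb, Ampd3 and Ckmt1. Ampd1 and Gatm could not be ordered, because the libraries of each overlapped those of the other. The libraries of every other neighbouring pair did not overlap, but the mean of Ampd3 lay within 1 SD of that of Ckmt1, whose replicates were far apart. A second deposited quantification, made directly from reads, put all 10 genes higher, from 1.32 times for Ampd1 to 2.37 times for Ak1. The rise was not particular to the 10. Most genes of the pathway and marker lists were also higher, as Acta1 at 33418 and 32214 TPM against 13742 and 12991. Some, such as Adk and Myh6, were lower in both libraries of the second quantification. The share of all genes that rose was not computed. There Ckm stood at 9244 ± 626 TPM, Gamt at 308 ± 10.8 TPM and Gatm at 210 ± 50.8 TPM, and Gatm came above Ampd1, at 188 ± 19.7 TPM. In replicate 2 of that quantification Ckmt1 also came above Ampd3, at 6.46 against 5.26 TPM. Its mean stayed below that of Ampd3, at 3.25 against 5.04 TPM. Levels are from the alignment-based quantification unless the other is named.

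**Figure D1:**
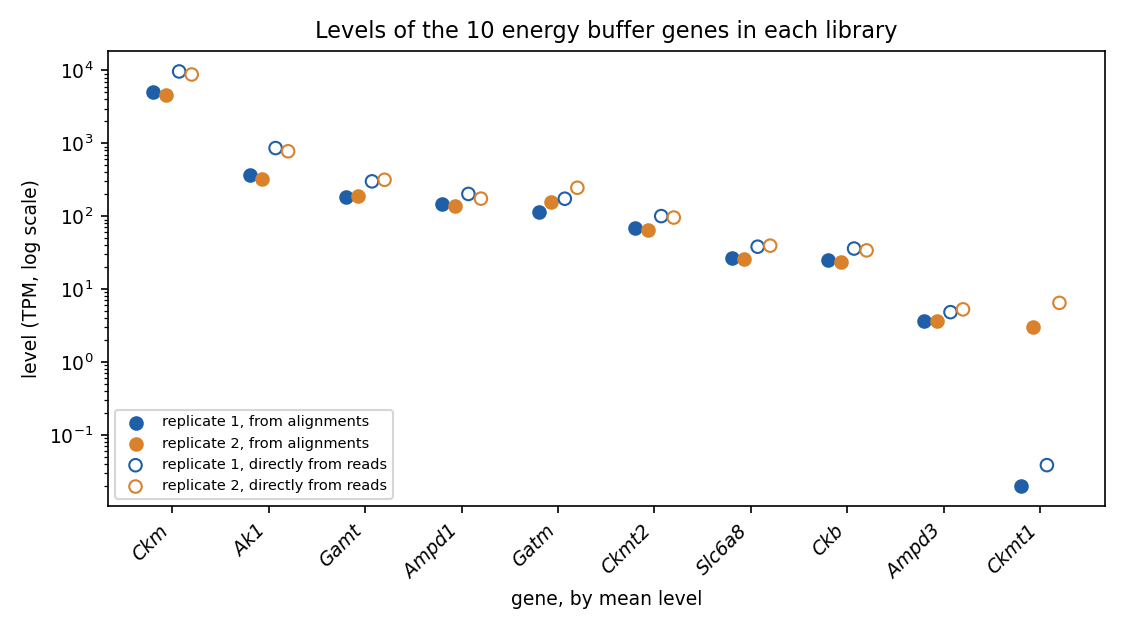
Level of each of the 10 genes on a log scale of TPM; filled points come from the alignment-based quantification and open points from the one made directly from reads, with replicate 1 in blue and replicate 2 in orange. Ckm lies above all others, the points of Ampd1 and Gatm overlap, and the replicates of Ckmt1 lie far apart at 0.02 and 3.06 TPM.

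Among the creatine kinases, the muscle forms held nearly all of the RNA. Ckm, the muscle cytosolic kinase that also sits at the M-line of the sarcomere (ENSMUSG00000030399.2, chr7:19404776-19422841, plus strand, mm10), stood at 5096 and 4534 TPM (4815 ± 398 TPM). It ranked 5 among the protein-coding genes in each library. Ckb, the general cytosolic form best known from brain (ENSMUSG00000001270.9, chr12:111669361-111672338, minus strand), stood at 25.2 and 23.5 TPM (24.4 ± 1.19 TPM). Its ranks were 2807 and 3027. The libraries of the 2 genes lay far apart, at 201-fold and 192-fold per library, a log2 ratio of 7.65 and 7.58. Neuron markers, for nerve tissue in the dissected muscle, summed to 4.10 and 3.18 TPM, with only Stmn2 of the 5 at 1 TPM or more in both libraries. The part of nerve, Schwann or other non-muscle cells in the Ckb level was not tested.

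Ckmt2, the sarcomeric mitochondrial kinase (ENSMUSG00000021622.3, chr13:91853387-91876885, minus strand), stood at 68.3 and 65.5 TPM (66.9 ± 2.01 TPM). Ckmt1, the ubiquitous mitochondrial kinase (ENSMUSG00000000308.14, chr2:121357714-121363737, plus strand), stood at 0.02 TPM in replicate 1, from 1 expected count, and at 3.06 TPM in replicate 2, from 92. The sarcomeric form was thus above the ubiquitous form in both libraries, but by very different margins. In replicate 2 the ratio of Ckmt2 to Ckmt1 per length was 21.4 (95% exact counting interval 17.4 to 26.6). In replicate 1 it was 3040, resting on that 1 count, with an interval from 545 to 120109. All intervals here cover counting error only and not the spread between animals. Reads carried no molecular identifiers in these files, so copies of the same molecule could not be told apart and true counting error may be larger.

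Of the summed TPM of the 4 creatine kinase genes, Ckm made up 98.2% and 98.0% (98.1 ± 0.133%), Ckmt2 1.32% and 1.42% (1.37 ± 0.0701%) and Ckb 0.486% and 0.508% (0.497 ± 0.0162%). Ckmt1 made up 0.000385% in replicate 1 and 0.0662% in replicate 2. The first 3 shares moved little between the animals. Ckm and Ckmt2 together were 188-fold above Ckb and Ckmt1 together. The cytosolic pair was 70.6-fold above the mitochondrial pair, and Ckm alone was above Ckmt2 by a log2 ratio of 6.22 and 6.11. Mitochondrial creatine kinase hands its phosphate on from ATP exported by the ADP/ATP carriers, and the muscle carrier Slc25a4 stood at 598 ± 64.4 TPM, above Ckmt2 in both libraries.

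**Figure D2:**
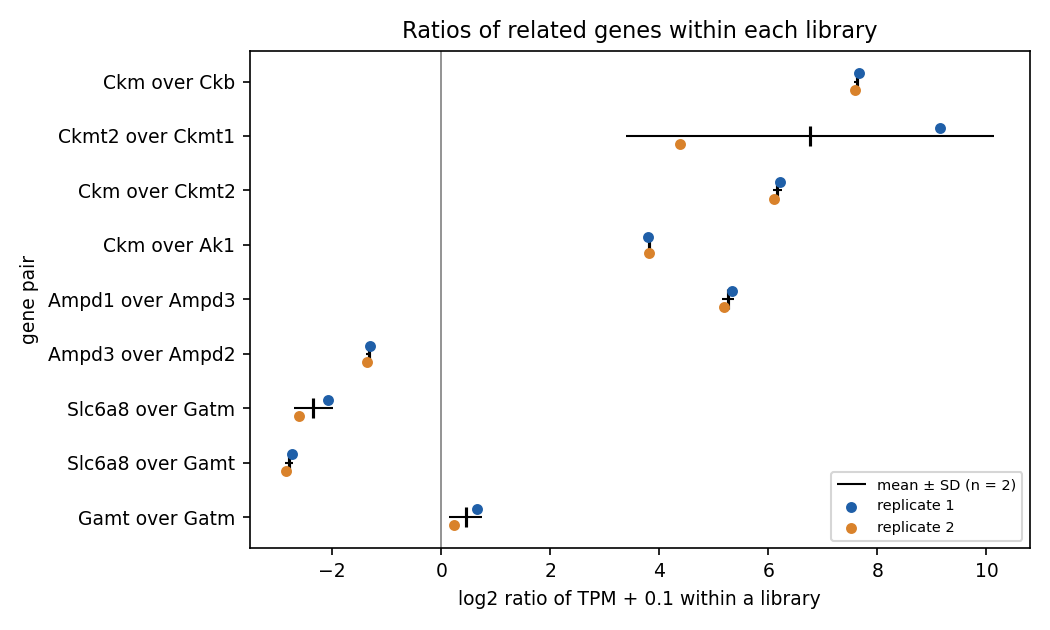
Log2 ratios of 9 gene pairs within each library (TPM plus 0.1), with replicate 1 in blue, replicate 2 in orange, and the mean ± SD (n = 2) in black. The replicates lie close for most pairs and far apart for Ckmt2 over Ckmt1, at 9.16 and 4.38.

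The 4 kinases are related in sequence, which bears on whether reads can be assigned to the right gene. Coding sequences of Ckm and Ckb were identical at 75.9% of 1143 aligned nt, and those of Ckmt2 and Ckmt1 at 71.1% of 1254 nt. The longest identical runs, searched in the whole transcripts, were 20 nt and 39 nt. Cytosolic and mitochondrial forms shared between 62.4% and 64.1%. The most alike 60-nt window of the 4, in which 44 bases were the same in all, is shown as their closest likeness. It comes from the mm10 reference transcripts of GENCODE M21 and not from the hybrid animals, reads 5′ to 3′ along each gene, and has in capitals the bases that differ from Ckm.
Ckm: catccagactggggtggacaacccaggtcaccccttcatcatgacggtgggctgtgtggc
Ckb: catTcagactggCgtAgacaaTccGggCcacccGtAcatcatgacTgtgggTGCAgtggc
Ckmt2: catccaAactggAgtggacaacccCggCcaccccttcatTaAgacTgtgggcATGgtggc
Ckmt1: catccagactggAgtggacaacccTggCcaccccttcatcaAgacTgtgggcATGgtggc
Ckb differed from Ckm at 13 of the 60 bases, Ckmt2 at 10 and Ckmt1 at 8. The Ckm window crosses exons 2 and 3 of Ckm-203 (chr7:19414305-19414930), and the Ckb window exons 2 and 3 of Ckb-201 (chr12:111671546-111671791). The other windows lie in exon 3 of Ckmt2-201 (chr13:91863161-91863220) and of Ckmt1-202 (chr2:121359696-121359755). Ckm was compared here through Ckm-203, which holds the whole coding sequence but only 2.98 ± 0.170% of Ckm from alignments. The leading Ckm-201 lacks exon 2 of Ckm-203, and so the first bases of the Ckm window. How well reads can be separated in these windows was not measured. Among the kinases, Ckb and Ckm had a closer match in another gene. The processed pseudogene Gm12892 matched Ckb at 96.8% over 1149 nt and held 14.6 and 14.4 expected counts, where Ckb held 1041 and 909. How reads were split between Ckb and this copy was estimated by the quantifier, so those few counts are uncertain. The antisense gene A930016O22Rik matched Ckm at 100% over 213 nt and held 11 and 6 counts, where Ckm held 145361 and 119905.

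The stretches upstream of the kinase genes' starts are shown because Ckm and Ckmt2, the muscle forms, can be read there against Ckb, the general form. E boxes, with the letters CANNTG, are bound by MyoD and other muscle regulators, MEF2 motifs by the MEF2 factors, and TATAAA is the TATA box of the core promoter. They were searched on both strands in the 250 bases before each RefSeq start on GRCm38.p6, and matches are in capitals. For Ckm the sequence stops after 181 of these bases, where the first exon of Ckm-203 begins. The bases left out lie nearest the start, where Ckb has its TATAAA, so the shown stretches cannot be compared there. In the full 250 bases Ckm held no exact TATAAA, and near matches were not searched. Ckm-202 starts at chr7:19404776, outside this window.
Ckm: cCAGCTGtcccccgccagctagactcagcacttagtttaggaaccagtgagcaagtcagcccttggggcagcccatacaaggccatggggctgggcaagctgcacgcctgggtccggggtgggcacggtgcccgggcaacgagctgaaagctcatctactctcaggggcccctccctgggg
Ckmt2: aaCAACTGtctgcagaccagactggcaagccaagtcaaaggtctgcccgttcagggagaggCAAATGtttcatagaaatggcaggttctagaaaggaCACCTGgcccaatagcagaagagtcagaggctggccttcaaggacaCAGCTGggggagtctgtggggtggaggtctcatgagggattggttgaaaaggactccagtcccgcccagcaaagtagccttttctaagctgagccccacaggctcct
Ckb: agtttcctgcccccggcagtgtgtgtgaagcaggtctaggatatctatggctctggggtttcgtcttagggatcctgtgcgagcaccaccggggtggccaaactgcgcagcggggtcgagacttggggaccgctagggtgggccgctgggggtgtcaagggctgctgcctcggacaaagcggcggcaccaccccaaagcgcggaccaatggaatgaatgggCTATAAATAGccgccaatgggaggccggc
The Ckm stretch (chr7:19410844-19411024, plus strand) held 1 E box, CAGCTG, whose first base lay 249 bases before the start. The Ckmt2 window (chr13:91876886-91877135, minus strand) held 4 E boxes, with first bases 248, 189, 153 and 107 bases before the start, of which the last is CAGCTG. The Ckb window (chr12:111672339-111672588, minus strand) held no E box, but a TATAAA 28 bases before the start inside a MEF2 match that began 1 base earlier. Among 32817 RefSeq windows of this length, 66.2% held an E box, 13.0% held CAGCTG, 12.4% held TATAAA and 2.92% held a MEF2 match, so an E box by itself was common. These matches describe letters and are not measured binding sites. RefSeq windows were found for 8 of the 10 genes, Ampd1 and Slc6a8 being the others.

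Ak1, the cytosolic adenylate kinase of muscle and red cells (ENSMUSG00000026817.14, chr2:32621758-32635058, plus strand), was second to Ckm among the 10, at 366 and 325 TPM (345 ± 29.0 TPM). Ckm was 13.9-fold above it, with a log2 ratio of 3.80 in each library. Erythroid markers, of the other cells known for Ak1, summed to 472 and 544 TPM with all 4 at 1 TPM or more in both libraries. Their part in the Ak1 level was not tested. Of the 10 other adenylate, guanylate and related kinases, 7 were at 1 TPM or more in both libraries, with a median of 7.76 ± 1.30 TPM. Ak6, of the nucleus, stood at 31.6 ± 2.02 TPM and Ak3, the GTP:AMP kinase of the mitochondrial matrix, at 30.3 ± 1.63 TPM. Cmpk1, the cytosolic UMP and CMP kinase, stood at 18.7 ± 1.70 TPM. All 10 lay below Ak1 in both libraries. Ak9 had no count in either library.

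Ampd1, the AMP deaminase of skeletal muscle (ENSMUSG00000070385.12, chr3:103074014-103099720, plus strand), stood at 149 and 137 TPM (143 ± 9.01 TPM). Ampd3, the form known from red cells and also made in other tissues (ENSMUSG00000005686.17, chr7:110768206-110812405, plus strand), stood at 3.60 and 3.67 TPM (3.64 ± 0.05 TPM). Their libraries lay far apart, 38.3-fold on average, with log2 ratios of 5.34 and 5.18. Ampd2, the form best known from liver, stood at 9.04 and 9.60 TPM and was thus above Ampd3 in both libraries, 2.52-fold on average. Ampd3 shares 11974 nt of its span, introns included, with Rnf141 on the other strand, which held 678 and 749 counts where Ampd3 held 282 and 305. Of the leading Ampd3 transcript, of 4094 nt, the longest match to an Rnf141 transcript was 198 nt. The sources used here do not say whether counting was strand-specific, and the Ampd3 value is uncertain for that reason.

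The other enzymes of the purine nucleotide cycle, which turns IMP back into AMP, were present with the deaminase. Adssl1, the muscle adenylosuccinate synthase, stood at 110 and 82.6 TPM (96.2 ± 19.3 TPM), and Adsl, the lyase that follows it, at 48.4 ± 5.12 TPM. Adss, the general synthase, stood at 12.2 ± 1.41 TPM. All 4 genes found of this list, Ampd2 included, were at 1 TPM or more in both libraries, with a median of 30.3 ± 1.86 TPM. The listed symbols Adss1 and Adss2 were not matched, which concerns names only and does not show that a gene was absent. The muscle synthase lay above the general one in both libraries, as Ampd1 lay above Ampd2 and Ampd3.

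Of the genes that salvage or break down AMP and IMP, all 8 were at 1 TPM or more in both libraries, with a median of 10.3 ± 0.279 TPM. Nt5c2, the cytosolic nucleotidase that acts on IMP, stood at 35.2 ± 3.60 TPM, Hprt, the hypoxanthine salvage enzyme, at 29.1 ± 1.04 TPM, Adk, adenosine kinase, at 21.4 ± 2.75 TPM, and Aprt, the adenine salvage enzyme, at 15.8 ± 0.962 TPM. The AMP-activated kinase, which senses the AMP that adenylate kinase leaves, had all 8 listed genes at 1 TPM or more in both libraries, with a median of 13.3 ± 0.619 TPM. Its upstream kinase Stk11 stood at 47.9 ± 4.31 TPM, the catalytic subunit Prkaa2 at 17.5 ± 2.21 TPM, the regulatory Prkag1 at 17.8 ± 0.523 TPM and the scaffold Prkab2 at 13.5 ± 0.594 TPM. Each gene of both lists lay below Ampd1 in both libraries.

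Slc6a8, the sodium- and chloride-dependent creatine transporter (ENSMUSG00000019558.14, chrX:73673150-73682502, plus strand), stood at 27.0 and 26.0 TPM (26.5 ± 0.686 TPM). It ranked 2632 and 2728 among the protein-coding genes, close to Ckb. Its nearest listed relative by level was Slc6a6, the taurine transporter, at 23.2 and 25.9 TPM (24.5 ± 1.88 TPM), whose libraries lay just below those of Slc6a8. Slc6a13, a GABA and taurine transporter, stood at 9.16 ± 1.20 TPM. Of the 5 listed relatives these were the 2 at 1 TPM or more in both libraries. Slc6a11 and Slc6a12 lay between 0.16 and 0.30 TPM.

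Both genes of creatine synthesis were above the transporter in each library. Gatm, which makes guanidinoacetate from arginine and glycine in mitochondria (ENSMUSG00000027199.14, chr2:122594467-122611303, minus strand), stood at 115 and 159 TPM (137 ± 30.9 TPM). Gamt, the cytosolic methyltransferase that turns guanidinoacetate into creatine (ENSMUSG00000020150.13, chr10:80258151-80261012, minus strand), stood at 182 and 187 TPM (184 ± 3.64 TPM). Gatm thus varied far more between the animals than Gamt. Gatm was 5.08-fold above Slc6a8 on average, with log2 ratios of uptake over synthesis of -2.09 and -2.60, and Gamt 6.94-fold, with -2.75 and -2.84. Summed, the synthesis genes were 12.1-fold above the transporter. Gamt exceeded Gatm by a log2 ratio of 0.66 and 0.24 per length, and this order turned when counts were not divided by length, at a mean of -0.89, where the leading transcripts have 2389 nt for Gatm and 988 nt for Gamt. RNA levels of a transporter and of enzymes do not measure uptake or synthesis of creatine.

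Supply genes for the synthesis were below Gatm and Gamt. Of 10 genes for arginine and methyl supply, 7 were at 1 TPM or more in both libraries, with a median of 7.11 ± 1.44 TPM. Of these, Mat2a, the catalytic subunit of S-adenosylmethionine synthetase outside the liver, stood at 107 and 87.6 TPM (97.2 ± 13.6 TPM), and its regulatory partner Mat2b at 27.9 ± 1.70 TPM. Slc7a2, an arginine transporter, stood at 19.0 ± 0.438 TPM and Ahcy, which clears the spent methyl donor, at 11.6 ± 0.0778 TPM. Among these 10, no gene reached the level of Gatm in either library.

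Carriers and ATP users placed the 10 genes on the scale of the fibre. Of 7 mitochondrial ADP/ATP and phosphate carriers and porins, 6 were at 1 TPM or more in both libraries, with a median of 139 ± 4.38 TPM. Beside Slc25a4 these were led by Vdac1, a porin of the outer membrane, at 341 ± 56.0 TPM, Slc25a3, the phosphate carrier, at 303 ± 17.1 TPM, and Slc25a5, the general ADP/ATP carrier, at 139 ± 4.38 TPM. All 6 ATP users were at 1 TPM or more in both libraries, with a median of 454 ± 116 TPM. Myh8, the perinatal myosin heavy chain, stood at 4877 and 4482 TPM, close to Ckm in each library, and Atp2a1, the calcium pump of fast fibres, at 2740 and 2162 TPM. Myh4, the fast IIB myosin heavy chain, stood at 663 ± 226 TPM and Myh1, the IIX chain, at 246 ± 5.77 TPM. Ckm lay above each listed ATP user in both libraries, but below Myh8 with the longer Ckm transcript described under the transcripts (3475 ± 299 TPM).

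**Figure D3:**
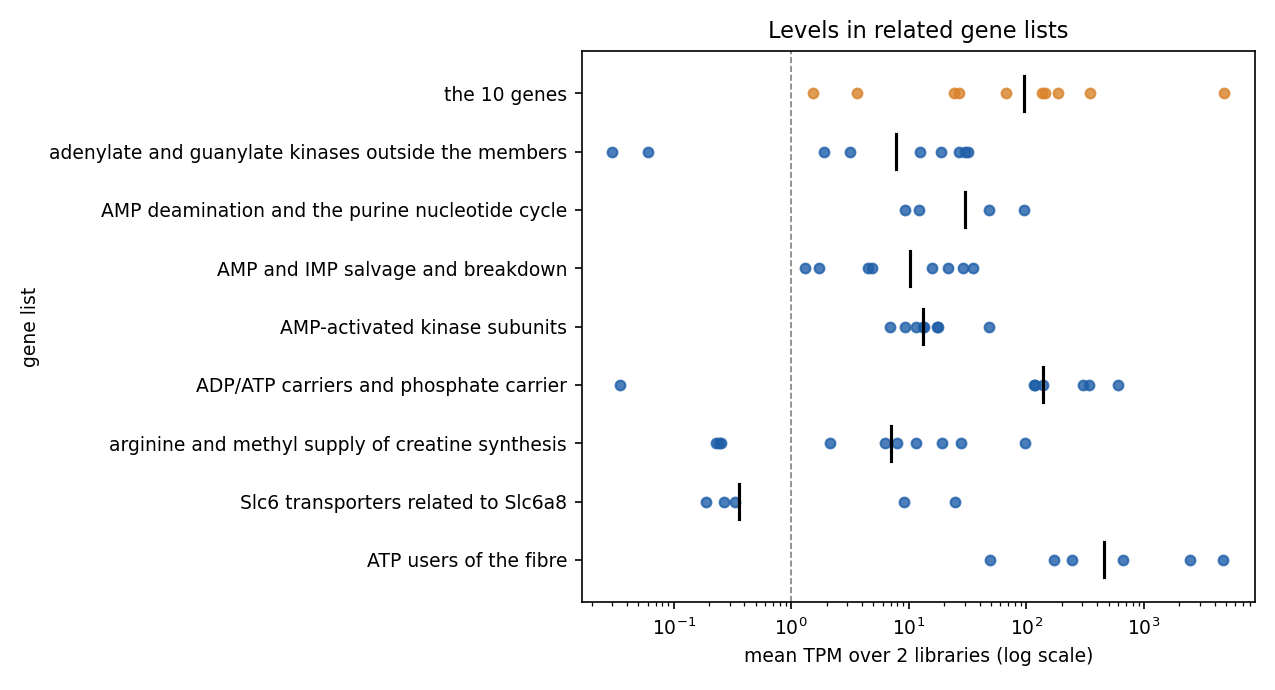
Mean TPM over the 2 libraries on a log scale for the 10 genes (orange) and for the genes of 8 related lists (blue), with the list median as a black bar and 1 TPM as a dashed line. Ckm is the rightmost point of the 10 and lies beside Myh8, the rightmost of the ATP users; genes with no count are not drawn.

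Between the animals, 8 of the 10 genes had log2 ratios between -0.21 and 0.20, and Gatm and Ckmt1 lay above that range. In all, 1 gene was past 1.5-fold higher in replicate 2, where 9.27% of the 17998 genes averaging 10 counts or more were, and 0 were past 1.5-fold lower, where 3.63% were. Ckmt1 was the gene past the fold, at 1 and 92 counts, with a log2 ratio of replicate 2 over replicate 1 in depth-scaled counts (CPM) of 6.61 (95% counting interval 4.09 to 11.93). It passed the count minimum only through replicate 2, so it had to differ. Gatm followed at 7447 and 9595 counts, 1.36-fold higher in replicate 2 (log2 ratio 0.45, interval 0.40 to 0.49), with 12.2% of genes at or above it. For Gatm the counting interval did not reach 0, and the spread between animals is known from 2 only.

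At the other end, Ak1 had a log2 ratio of -0.21 (interval -0.24 to -0.18), Ckm of -0.20 (-0.21 to -0.18) and Ampd1 of -0.12. The skeletal muscle markers had a median of -0.15. The log2 ratio of Slc6a8 was -0.11, that of Ckb -0.11 and that of Ckmt2 -0.08, while Ampd3 stood at 0.20 and Gamt at 0.02. The intervals of Ckb, Ampd3 and Gamt spanned 0. Together, 4 ratios were above 0 and 6 below, with a median of -0.10, and all genes had a median of 0.01 with the 5th to 95th percentile from -0.50 to 1.04. The sign of Gamt depended on the scaling, turning to -0.00 with DESeq2 size factors, and the other scalings tried moved the median of all genes by 0.08 or less. Scaled by the ERCC controls, Ckmt2 came to -0.0009, Slc6a8 to -0.03, Ckb to -0.03 and Ampd1 to -0.04. Intervals were computed with the trimmed-mean scaling only. Whether an interval that ends near 0 spans it thus depends on the scaling.

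**Figure D4:**
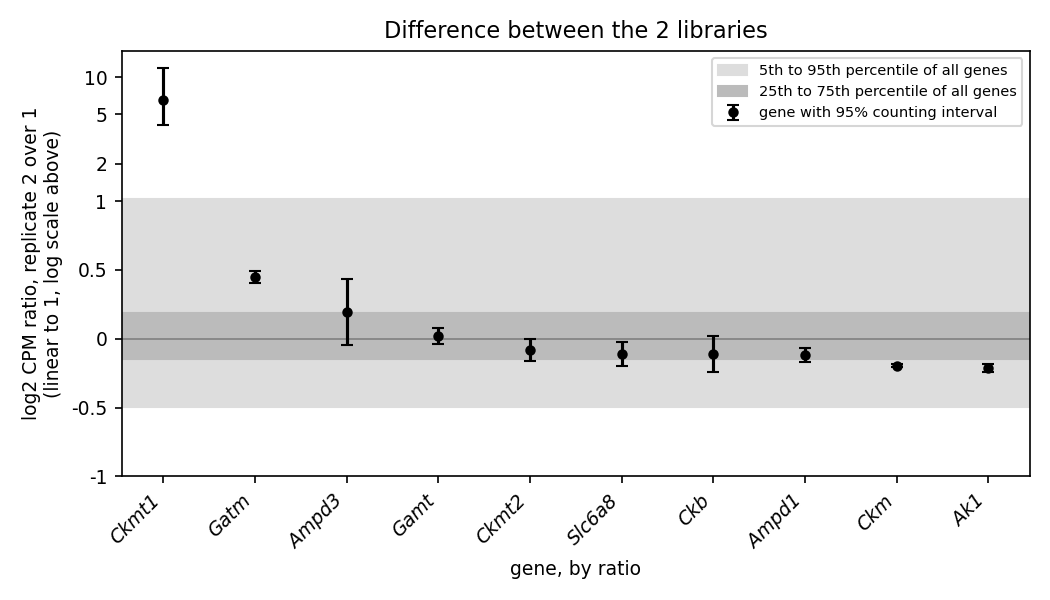
Log2 ratio of depth-scaled counts (CPM), replicate 2 over replicate 1, for the 10 genes with 95% counting intervals; the grey bands hold the middle of all genes tested, and the axis is linear up to 1 and logarithmic above. Ckmt1 stands at 6.61, above the bands, and Gatm at 0.45, while the other 8 genes lie between -0.21 and 0.20.

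Markers of some other tissues, among them epidermis, Schwann cells, fat and liver, summed higher in replicate 2, the direction of Ckmt1 and Gatm. Those of skeletal muscle, fibroblasts and neurons summed lower. All 5 epidermis markers were higher in replicate 2 and summed to 9.56 and 721 TPM, with Krt5 at 0.16 and 60.8 TPM. The 5 Schwann cell markers summed to 324 and 732 TPM, all 5 at 1 TPM or more in both libraries, and 3 were past 1.5-fold higher. The 4 fat markers summed to 218 and 349 TPM, with Adipoq at 14.6 and 32.9 TPM, 3 of the 4 at 1 TPM or more in both libraries and Ucp1 below it at 0.33 and 0.69 TPM. The part of these tissues in the Ckmt1 and Gatm values was not tested. Fibroblast markers summed to 3105 and 3034 TPM and smooth muscle markers to 233 and 250 TPM, with all 4 of each list at 1 TPM or more in both libraries. Osteoclast markers summed to 22.8 and 25.5 TPM (2 of 3) and liver markers to 7.32 and 12.3 TPM (2 of 3). All 3 liver markers were past 1.5-fold higher in replicate 2. Kidney, where Gatm is abundant, had Umod and Kap at 0 in both libraries and Slc34a1 at 0 and 0.06 TPM. Heart markers summed to 49.4 and 60.7 TPM, nearly all from Myh6, with Nppa at 0 in both libraries and Tnni3 at 1.24 and 0.35 TPM.

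At the transcript level, the 10 genes have 58 annotated transcripts, and 2 quantifications were deposited, one from alignments and one directly from reads. By TPM summed over both libraries they named the same leading transcript for 9 of the 10 genes and different ones for Ak1. For Ckmt1 this rests on replicate 2, since the 1 count of replicate 1 went to different transcripts in the 2 tables. For Ckmt2, Ckb, Gatm and Gamt nearly all of the RNA went to 1 transcript. Ckmt2-201 is the only annotated transcript of its gene. Ckb-201 held 94.5 ± 0.00707% of Ckb in the first quantification and 89.6 ± 0.343% in the second, Gatm-201 held 95.4 ± 0.297% and 95.6 ± 0.358% of Gatm, and Gamt-202 held 94.6 ± 0.0283% and 95.7 ± 0.0199% of Gamt.

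Ckm was split between 2 transcripts in both quantifications, and its split touches its level. Ckm-201, of 1235 nt in 7 exons, held 60.1 ± 0.0566% from alignments and 51.2 ± 0.334% directly from reads. Ckm-202, of 671 nt and with no annotated coding sequence, held 36.9 ± 0.113% and 48.6 ± 0.336%. Its counts were 31420 and 26151 from alignments and 33627 and 28279 directly from reads. Shares are of TPM, so they also depend on the length each quantification divided by, which differed. Ckm-201 lacks an exon of 212 nt (chr7:19414119-19414330) that Ckm-202 and Ckm-203 hold, and its coding sequence has 936 nt where that of Ckm-203 has 1143 nt. Ckm-203 ends in an exon of 1634 nt that starts at the same base as the last exon of Ckm-201, of 377 nt, and contains it. Were the missing exon added to Ckm-201, all Ckm counts divided by that length of 1447 nt would give 3686 and 3264 TPM (3475 ± 299 TPM), an alternative chosen after seeing the data. Ckm would still be above every other of the 10 genes.

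Ak1 was assigned to different transcripts by the 2 quantifications. From alignments, Ak1-202, of 2063 nt, held 93.1 ± 0.389%, and Ak1-201 and Ak1-204 held 1.02 ± 0.516% and 1.94 ± 0.382%. Directly from reads, Ak1-201, of 2034 nt, held 53.1 ± 0.682% and the retained-intron transcript Ak1-204 46.0 ± 1.15%, with Ak1-202 at 5.35e-05%. In counts the shorter Ak1-204, of 752 nt, was well below Ak1-201 there, at 3493 and 2999 against 17335 and 14106. The disagreement was the same in both libraries, so the start and coding sequence of the Ak1 RNA in this muscle are not settled by these tables. The gene's level was 345 ± 29.0 TPM in the first and 820 ± 58.5 TPM in the second quantification, above every gene of the 10 but Ckm in both.

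Ampd1, Ampd3 and Slc6a8 each had a leading transcript with a smaller share. Ampd1-201, the 16-exon form, held 62.2 ± 1.20% from alignments and 77.0 ± 6.61% directly from reads, with Ampd1-203 at 18.4 ± 0.424% and Ampd1-204 at 13.1 ± 1.05% in the first. Ampd3-201 held 55.0 ± 7.49% and 64.8 ± 9.05%. Slc6a8-201 held 45.5 ± 2.98% and 30.8 ± 0.414%, and Slc6a8-203 was at 22.5% and 12.9% in the replicates of the first quantification. From alignments, the 92 counts of Ckmt1 in replicate 2 went to Ckmt1-202 (71.1% of the gene's TPM) and Ckmt1-210 (28.9%). The 1 count of replicate 1 went to Ckmt1-201. The second quantification spread replicate 2 more widely. It gave Ckmt1-202 40.8%, Ckmt1-210 29.5%, Ckmt1-203 12.3%, Ckmt1-201 9.39% and Ckmt1-204 7.99%, and put the 1 count of replicate 1 in Ckmt1-202. Directly from reads, Ckb-204 at 10.4 ± 0.343%, Ampd3-202 at 10.8 ± 0.0427% and Slc6a8-204 at 12.3 ± 3.09% also held 10% or more of their genes in both libraries. These shares rest on estimation among overlapping transcripts and on few counts for Ckmt1.

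**Figure D5:**
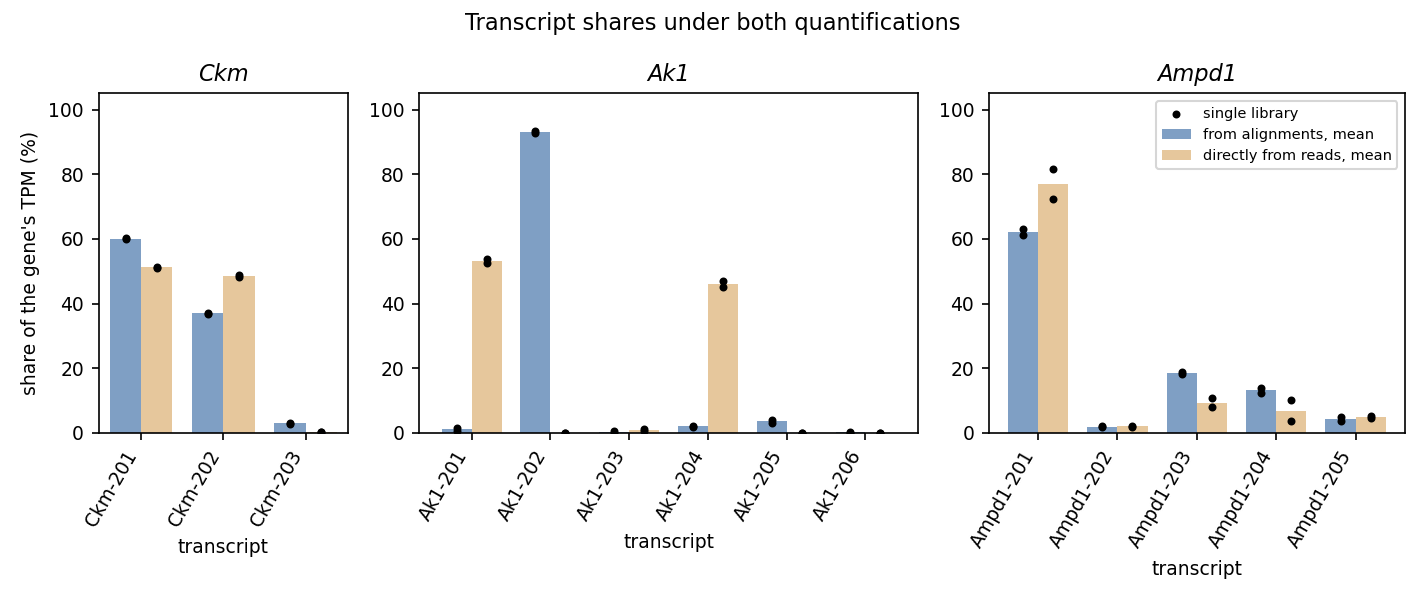
Percent of its gene's TPM that each annotated transcript of Ckm, Ak1 and Ampd1 held, with bars for the mean of the 2 libraries, blue from alignments and tan directly from reads, and black points for single libraries. Both quantifications split Ckm between Ckm-201 and Ckm-202, while Ak1 goes to Ak1-202 in the first and to Ak1-201 and Ak1-204 in the second.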

How the data were processed

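Total RNA-seq tables of 2 gastrocnemius libraries, 1 per animal, were used as deposited. Aligner and quantifier: not given in the sources used here. Deposited notes name mm10 as build and GENCODE M21 as annotation. The authors deposited expected counts, which need not be whole, and TPM, per the file headers. Their transcript tables give the percent of a gene held by each transcript, per the file headers, and a second deposited table, made directly from reads, gives estimated counts and TPM. The alignment-based TPM used a length reduced by 99 nt. Counts and TPM shares of Ckm-201 and Ckm-202 in the second quantification do not follow from that reduction. The 2 TPM scales thus corrected for length differently, by an amount not computed here. The 26248 numbered entries, which name no gene and held 4 and 6 counts, were left out, as were ERCC controls (0.650% and 0.635% of counts). Expected counts summed to 35512215 and 32507943 in all, and estimated counts to 34695571 and 31725605.

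From these, levels, shares and log2 ratios (TPM plus 0.1) were computed per library in Python 3.11.15 (pandas 2.3.3, scipy 1.17.1). Between-library ratios used expected counts rounded to whole numbers for trimmed-mean scaling in edgeR 4.0.16 and size factors in DESeq2 1.42.0 (R 4.3.3), and a mean count of 10 or more. Intervals are exact (Clopper-Pearson) at 95%. Coding sequences were aligned with MAFFT 7.526 and copies searched with BLAST 2.17.0, at 95% identity. The ratio code was tested on simulated data. The members, pairs, the 8 pathway and 12 marker lists and the alternatives were chosen with earlier results of these data known. Named were all 10 genes, up to 4 genes of highest mean TPM in each list with those in a pair, and each member's leading transcript and others at 10% or more of the gene in both libraries. Alternatives were the second quantification, counts not divided by length, TPM over protein-coding genes only, another pseudocount, other scalings, filters and folds, each library left out, and the Ckm length. A gene pair and 2 single levels that the rule names are not reported here. Replicate numbers name the animals and pair nothing.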

Additional observations from a re-analysis of the deposited data

How the results depend on the processing

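With 2 libraries, leaving one out returns the other's value, which says nothing about stability; Ckmt2 over Ckmt1 was then 4.38 or 9.16 and Ckmt1 3.06 or 0.02 TPM. No paired analysis was possible because there is 1 group. With the second quantification the log2 ratio was 8.04 for Ckm over Ckb, 6.56 for Ckm over Ckmt2, 3.50 for Ckm over Ak1, -1.75 for Ampd3 over Ampd2 and -2.99 for Slc6a8 over Gamt. With counts not divided by length these were 7.08, 5.65, 2.86, -1.18 and -1.14, Ampd1 over Ampd3 was 4.49, and Gamt over Gatm turned to -0.89, which follows from the longer Gatm transcript. A pseudocount of 1 TPM gave 5.06 for Ckmt2 over Ckmt1 (6.77 with 0.1), 7.57 for Ckm over Ckb, 3.80 for Ckm over Ak1, 4.96 for Ampd1 over Ampd3 and -1.15 for Ampd3 over Ampd2. The longer Ckm length, chosen after seeing the data, gave 7.15 for Ckm over Ckb, 5.69 for Ckm over Ckmt2 and 3.33 for Ckm over Ak1. The creatine kinase share of Ckm was 98.5% in the second quantification, 97.3% in undivided counts and 97.4% with the longer Ckm, that of Ckb 0.373%, 0.717% and 0.684%, and that of Ckmt2 1.05%, 1.93% and 1.88%. The leading transcript's share in the second quantification was 51.2% for Ckm-201, 89.6% for Ckb-201, 5.35e-05% for Ak1-202, 77.0% for Ampd1-201, 64.8% for Ampd3-201, 30.8% for Slc6a8-201 and 95.7% for Gamt-202. Past 1.5-fold higher in replicate 2 were 0 of the members at a mean count of 100 or more, which drops Ckmt1, and 389 of all genes, with 5238 under no filter and 941 at 2-fold; lower were 108, 3625 and 203. Apart from these, the cause of each move was not tested. The second quantification placed Gatm above Ampd1 by mean level and Ckmt1 above Ampd3 in replicate 2, and undivided counts ordered Gatm, Ampd1, Gamt. The Ckmt1 value of replicate 1 rests on 1 count, which lies under the limit of 3 that a count of 0 allows. Replicate 1 was the deeper library, with 35281187 counts in annotated genes against 32301531.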
